A study of Homo sapiens with 16 samples.

Results

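Genes that TGF-beta and BMP signalling switches on or uses to restrain itself were followed by RNA sequencing in HEK293, an immortalised line of human embryonic kidney origin. They were chosen by name (GENCODE 29 gene names), as 9 of the 35075 genes with a matched transcript: ID1, ID2, ID3 and ID4, SMAD6, SMAD7 and SMAD9, BAMBI and BMP4. All 9 passed the low-count filter and were among the 16787 genes tested. The cells overexpressed the RNF43 frameshift variant G659fs, the RNF43 frameshift variant R117fs, wild-type RNF43 (WT) or, as the control, GFP, with 4 libraries in each group and 16 in all. All groups are the same cell line and all carry an overexpressed protein. How the proteins were introduced and whether a group was a clone, a pool or separate cultures are not given in the sources used here, so p-values measure the spread between these libraries, which may be technical. RNF43 is a ubiquitin ligase in the cell membrane and takes Frizzled receptors off the cell surface. The R117fs frameshift lies ahead of the sequence for the catalytic RING domain and the G659fs frameshift after it.

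BMP and TGF-beta ligands bind pairs of receptor serine/threonine kinases, which phosphorylate receptor SMAD proteins, and these enter the nucleus with SMAD4 and switch genes on. The ID genes are classical direct BMP targets; their proteins carry a helix-loop-helix but no DNA-binding basic region, and by pairing with bHLH factors such as TCF3 they keep those off DNA. SMAD6 and SMAD7 are inhibitory SMADs, induced by the pathway and acting back on its receptors. BAMBI is a pseudoreceptor without a kinase domain, SMAD9 is a receptor SMAD of the BMP branch, and BMP4 is a ligand. By GENCODE 29 on GRCh38 the genes lie apart: ID1 on chromosome 20 from 31605283 to 31606515, ID2 on chromosome 2 from 8678845 to 8684453, ID3 on chromosome 1 from 23557918 to 23559794, ID4 on chromosome 6 from 19837386 to 19840684, SMAD6 on chromosome 15 from 66702228 to 66782848, SMAD7 on chromosome 18 from 48919853 to 48952052, SMAD9 on chromosome 13 from 36844831 to 36920765, BAMBI on chromosome 10 from 28677342 to 28682939 and BMP4 on chromosome 14 from 53949736 to 53958761.

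The sequences before the start sites of the ID genes and of SMAD6 are shown because these 5 genes carry most of the differences described below. They were taken from RefSeq on GRCh38.p14, where all 9 genes had at least 1 start, and are printed 5′ to 3′. Capitals mark the searched motifs on either strand, namely the SMAD box GTCT (AGAC on the other strand), the paired box GTCTAGAC, the GC-rich SMAD element GGCGCC and the EGR1 motif GCGGGGGCG (CGCCCCCGC on the other strand). A paired box also counts as GTCT and AGAC. For ID1 the 250 bases before the start are chr20:31605039-31605288 on the plus strand, for ID4 chr6:19837120-19837369 on the plus strand and for SMAD6 chr15:66701986-66702235 on the plus strand.
ID1: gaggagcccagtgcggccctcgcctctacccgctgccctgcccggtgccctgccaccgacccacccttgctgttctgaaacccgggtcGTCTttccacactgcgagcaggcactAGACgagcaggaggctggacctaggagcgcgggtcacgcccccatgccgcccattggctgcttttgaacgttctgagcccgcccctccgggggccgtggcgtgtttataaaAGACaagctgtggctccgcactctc
ID4: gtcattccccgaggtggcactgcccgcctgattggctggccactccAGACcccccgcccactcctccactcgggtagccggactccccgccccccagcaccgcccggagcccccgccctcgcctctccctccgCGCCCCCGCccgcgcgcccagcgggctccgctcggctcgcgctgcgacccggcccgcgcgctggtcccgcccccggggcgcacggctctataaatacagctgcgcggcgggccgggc
SMAD6: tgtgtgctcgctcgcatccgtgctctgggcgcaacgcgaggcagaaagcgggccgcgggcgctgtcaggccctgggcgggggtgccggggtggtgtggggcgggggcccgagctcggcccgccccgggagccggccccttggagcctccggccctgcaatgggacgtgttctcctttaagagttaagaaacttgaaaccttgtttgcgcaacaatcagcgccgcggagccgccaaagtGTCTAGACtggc
Most of the windows of ID2 and ID3 lie in or next to annotated exons of these genes, so only 30 bases around their SMAD boxes are given, chr2:8681944-8681973 on the plus strand and chr1:23559637-23559666 on the minus strand.
ID2: cgcccgctcGTCTtgatAGACgtgccacct
ID3: ctccgcgGTCTtcggcgtcAGACcagccgg

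In the 250 bases before the RefSeq start, ID1 had 3 SMAD boxes, ID4 had 1, and ID2 and ID3 had 2 each. The ID3 transcript with most counts starts 293 bases before the RefSeq start of ID3, so both ID3 boxes lie after its start. The pair in ID2 faced each other across 4 bases and the pair in ID3 across 8. In SMAD6 the boxes met to form GTCTAGAC, beginning 12 bases before the RefSeq start. The SMAD6 transcript with most counts starts 8 bases before that RefSeq start, so GTCTAGAC spans the first base of this transcript. Of 35116 RefSeq promoter windows (250 bases before the start and 50 after it) 0.202% held GTCTAGAC. Among the windows of the members, that of SMAD6 held it. The 3 SMAD7 windows lay 1087, 2719 and 9245 bases from the start of the SMAD7 transcript with most counts. The sequence before that SMAD7 start was therefore not searched. GTCT alone was in 84.0% of windows. The EGR1 motif was in 5.07% of windows and, among the members, in those of ID4 and SMAD9. The SMAD9 window lay 40409 bases from the start of the SMAD9 transcript with most counts. GGCGCC was in 19.2% of windows, in that of BAMBI, which had 3, and in 1 of the 3 BMP4 windows. That BMP4 window lay 1595 bases from the start of the BMP4 transcript with most counts. These are matches of letters in a window, and nothing about binding was measured.

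The libraries held between 20364357 and 46779570 estimated counts. RNF43 was at 35240 to 47180 CPM in G659fs, 30190 to 94570 CPM in R117fs and 42150 to 59770 CPM in WT libraries, against 13.2 to 50.3 CPM in GFP libraries (CPM is counts per 1000000 after TMM scaling). In R117fs replicate 4 the deviations of genes from the rest of the group had an SD of 0.579 (log2), larger than the 0.409 or less of every other library. Across genes, which are not independent replicates, they followed GC content (Spearman 0.760). R117fs replicate 1 differed from its 3 fellows by a chi-square of 71.2 to 80.0 per degree of freedom. Called differences of R117fs are therefore also given without replicate 1 and without replicate 4. All 7 HEK293 marker genes looked for (PAX2, NEFL, NEFM, VIM, KRT8, KRT18 and CDH2) were detected in every group and summed to 1055 to 1362 CPM (per total matched counts) across libraries. Of these 7, 3 rose and 1 fell in G659fs, 3 rose and 0 fell in R117fs, and 4 rose and 0 fell in WT relative to GFP, with NEFL and NEFM higher in all 3. Over all genes 25.4%, 15.6% and 21.5% were called in these comparisons. Without R117fs replicate 1 the NEFL call in R117fs was lost (edgeR adjusted p = 0.0736), and the NEFM call held without replicate 1 or 4. That NEFL call was lost in 11 of the 16 fits without 1 library, among them those without each GFP replicate in turn. Fibroblast markers (COL1A1, COL1A2, DCN, LUM and PDGFRA) summed to 51.5 to 66.2 CPM in G659fs, 37.5 to 59.9 CPM in R117fs and 33.2 to 45.8 CPM in WT, against 45.4 to 59.1 CPM in GFP libraries, nearly all of it COL1A1. Gut epithelial markers (CDX2, VIL1, EPCAM and LGR5) summed to 28.3 to 37.2 CPM over all libraries. The part of these cell types in the results was not tested, and in bulk RNA fewer cells of a type and less RNA per cell cannot be told apart.

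Levels per length were taken from the deposited TPM, summed over the transcripts of a gene; the overexpressed RNF43 is part of the TPM total in the RNF43 groups. ID2 had the highest TPM of the 9 genes in every group, at 194.9 ± 4.8 TPM in G659fs, 135.3 ± 7.7 in R117fs and 169.4 ± 16.9 in WT, against 149.7 ± 14.4 in GFP cells (SD, n = 4 each). ID4 followed with 67.5 ± 4.6 TPM in G659fs, 49.6 ± 9.5 in R117fs and 62.3 ± 2.2 in WT, against 49.7 ± 5.3 in GFP cells. ID3 came next at 43.3 ± 1.6 TPM in G659fs, 32.6 ± 3.9 in R117fs and 39.3 ± 2.6 in WT, against 33.6 ± 1.9 in GFP cells. Within each group the libraries of these 3 genes did not overlap. On this scale the ID2 libraries of WT (150.1 to 191.3 TPM) and GFP (133.6 to 168.5 TPM) overlapped. So did the ID3 libraries of WT (35.6 to 41.2 TPM) with those of GFP (32.6 to 36.4 TPM) and R117fs (28.1 to 36.3 TPM). These libraries did not overlap in CPM. The other 6 genes stood between 5.6 and 16.9 TPM by their group means. In G659fs cells ID1 came after these at 16.9 ± 1.9 TPM and overlapped SMAD9 (15.1 ± 0.5 TPM). In GFP cells ID1 was at 8.9 ± 1.5 TPM, overlapping BMP4 above it and BAMBI below it. SMAD6 and SMAD7 were the lowest in all 4 groups, overlapped each other and ranged from 5.61 to 8.49 TPM by group means.

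**Figure D1:**
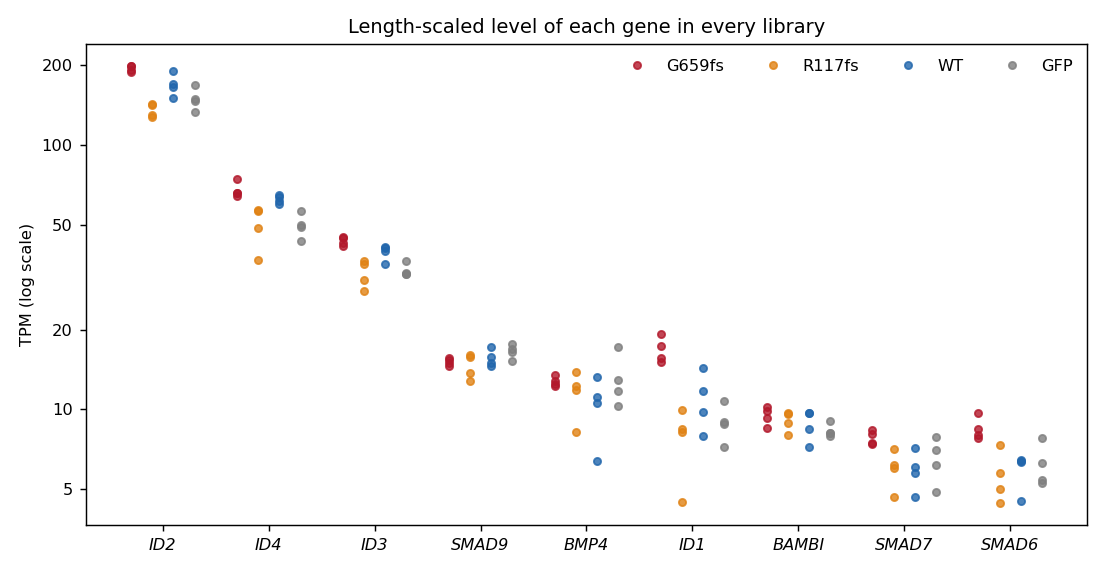
Length-scaled level (TPM, log axis) of the 9 genes, one point per library, in the 4 groups; genes are ordered by their mean in GFP cells. ID2, ID4 and ID3 stand above the other 6 genes in all groups, and ID1 in G659fs cells (15.0 to 19.3 TPM) lies above every other ID1 library (4.46 to 14.4 TPM).

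All 4 ID genes rose in G659fs cells, 3 of them rose in WT cells, and none passed the test in R117fs cells, each relative to GFP. Over all 16787 genes 25.4% were called in G659fs, 15.6% in R117fs and 21.5% in WT. ID1 was at 9.51, 12.0, 10.7 and 9.73 CPM in the 4 G659fs libraries, at 2.785, 4.905, 6.06 and 5.65 CPM in R117fs, and at 5.07, 9.15, 6.21 and 7.55 CPM in WT, against 4.26, 6.37, 4.95 and 5.065 CPM in GFP. Every G659fs library lay above all 12 others, while R117fs, WT and GFP libraries overlapped. The rise in G659fs over GFP was 1.03 ± 0.20 on the log2 scale (edgeR adjusted p = 0.00107), the largest of the 9 genes in that comparison. In WT it was 0.45 ± 0.20, which did not pass the threshold (adjusted p = 0.125; it passed under 1 of 23 alternative settings, with 0.0406), and in R117fs it was -0.15 ± 0.22 (adjusted p = 0.701). ID1 had 110 to 523 estimated counts per library and the widest spread of the 9 genes in each group, with a coefficient of variation of 10.8% in G659fs, 30.1% in R117fs and 25.1% in WT, against 17.1% in GFP.

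ID2 was at 166.8, 162.5, 162.6 and 155.5 CPM in G659fs, at 106.3, 104.2, 113.7 and 89.9 CPM in R117fs, and at 128.6, 158.5, 139.4 and 143.4 CPM in WT, against 102.7, 116.8, 115.9 and 111.6 CPM in GFP. All G659fs and WT libraries lay above all R117fs and GFP libraries. Relative to GFP the log2 fold change was 0.53 ± 0.08 in G659fs (edgeR adjusted p = 8.67e-05) and 0.35 ± 0.08 in WT (0.00317), both called, and -0.11 ± 0.08 in R117fs (0.352).

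ID3 was at 33.9, 33.2, 32.5 and 32.9 CPM in G659fs, at 21.7, 21.9, 25.8 and 28.4 CPM in R117fs, and at 28.65, 32.4, 31.7 and 32.4 CPM in WT, against 22.5, 24.9, 23.1 and 23.6 CPM in GFP. Here too the G659fs and WT libraries lay above all others, the closest being WT replicate 1 (28.65) and R117fs replicate 4 (28.4). The log2 fold change relative to GFP was 0.49 ± 0.08 in G659fs (edgeR adjusted p = 0.000292) and 0.41 ± 0.08 in WT (0.00154), both called, and 0.04 ± 0.08 in R117fs (0.764).

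ID4 was at 125.1, 108.6, 107.3 and 106.1 CPM in G659fs, at 93.8, 90.5, 80.1 and 65.6 CPM in R117fs, and at 105.2, 108.2, 109.0 and 101.7 CPM in WT, against 79.0, 76.9, 85.7 and 65.9 CPM in GFP. G659fs and WT libraries again lay above all R117fs and GFP libraries, while R117fs and GFP libraries overlapped. The log2 fold change relative to GFP was 0.54 ± 0.10 in G659fs (edgeR adjusted p = 0.000765) and 0.46 ± 0.10 in WT (0.0028), both called, and 0.11 ± 0.10 in R117fs (0.512). These 7 calls of ID genes relative to GFP, 4 in G659fs and 3 in WT, each passed under all 23 alternative settings.

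**Figure D2:**
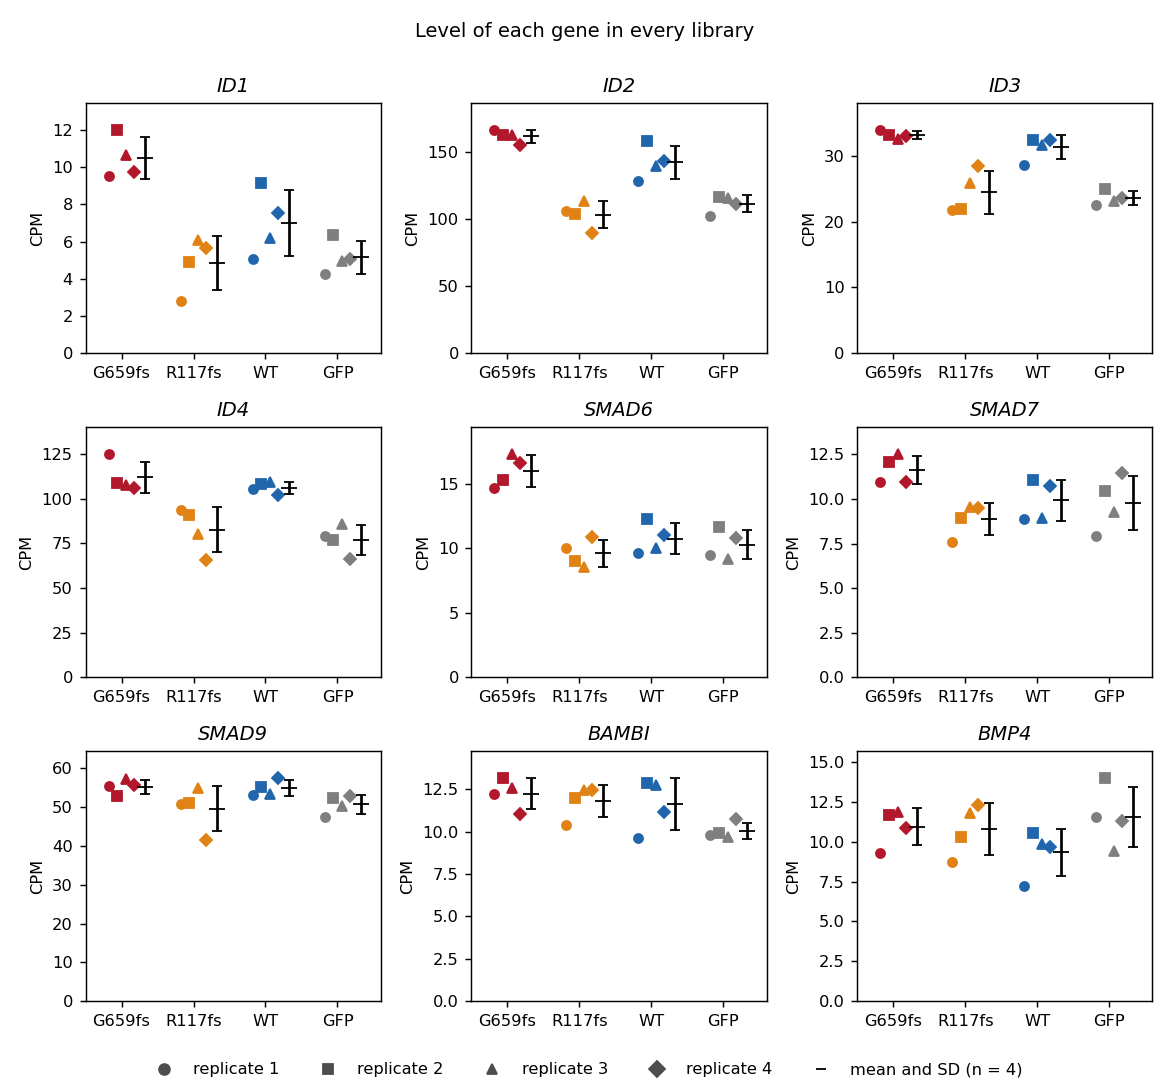
Level (CPM after TMM scaling) of each of the 9 genes in all 16 libraries, with the mean and SD of each group; marker shapes give the replicate number. For ID2, ID3 and ID4 the G659fs and WT libraries lie above all R117fs and GFP libraries; for ID1 and SMAD6 the G659fs libraries lie above all others.

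Of the inhibitory SMADs, SMAD6 rose in G659fs relative to GFP and SMAD7 did not pass. SMAD6 was at 14.7, 15.3, 17.4 and 16.6 CPM in G659fs, at 10.04, 9.06, 8.55 and 10.9 CPM in R117fs, and at 9.65, 12.3, 10.04 and 11.1 CPM in WT, against 9.501, 11.7, 9.22 and 10.8 CPM in GFP. Every G659fs library lay above all 12 others, which overlapped. It rose by 0.64 ± 0.10 on the log2 scale in G659fs relative to GFP (edgeR adjusted p = 0.000241). In R117fs the value was -0.09 ± 0.11 (0.597) and in WT 0.07 ± 0.10 (0.676), with a 95% interval in WT of -0.15 to 0.29.

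SMAD7 was at 10.9, 12.05, 12.5 and 11.0 CPM in G659fs, at 7.58, 8.93, 9.53 and 9.502 CPM in R117fs, and at 8.89, 11.1, 8.95 and 10.7 CPM in WT, against 7.90, 10.45, 9.25 and 11.4 CPM in GFP. G659fs libraries lay above all R117fs libraries but overlapped WT and GFP. No SMAD7 difference from GFP passed: it was 0.26 ± 0.11 on the log2 scale in G659fs (edgeR adjusted p = 0.107), -0.15 ± 0.12 in R117fs (0.429) and 0.03 ± 0.11 in WT (0.897).

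Of the remaining members, BAMBI rose in G659fs, where it was at 11.1 to 13.2 CPM against 9.68 to 10.7 CPM in GFP, a log2 fold change of 0.29 ± 0.10 (edgeR adjusted p = 0.0354). That call was lost in 6 of the 16 fits that left out 1 library: without G659fs replicate 1, 2 or 3 (adjusted p = 0.0602, 0.114 and 0.0816) and without GFP replicate 1, 2 or 3 (0.0768, 0.0753 and 0.0868). BAMBI in R117fs (10.4 to 12.4 CPM) and WT (9.62 to 12.9 CPM) had log2 fold changes of 0.23 ± 0.10 (0.133) and 0.21 ± 0.10 (0.131) relative to GFP. Its values in the 3 RNF43 groups were close to each other: the difference of G659fs from R117fs was 0.06, with a 95% interval of -0.14 to 0.27, and that from WT 0.08, with an interval of -0.12 to 0.28. The intervals do not exclude differences up to those limits.

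SMAD9 was at 52.9 to 57.2 CPM in G659fs, 41.6 to 55.0 CPM in R117fs and 53.3 to 57.6 CPM in WT, against 47.4 to 53.0 CPM in GFP. Its log2 fold change relative to GFP was 0.13 ± 0.07 in G659fs (edgeR adjusted p = 0.228), -0.03 ± 0.07 in R117fs (0.833) and 0.11 ± 0.07 in WT (0.288). In CPM the WT libraries did not overlap the GFP ones. In TPM the SMAD9 means were 15.14 in G659fs, 14.54 in R117fs and 15.65 in WT, below the 16.54 in GFP. The lowest SMAD9 value was R117fs replicate 4.

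BMP4, the only ligand among the members, was the one with lower mean CPM than GFP in all 3 RNF43 groups, and none of these differences passed. It was at 9.30 to 11.9 CPM in G659fs, 8.76 to 12.3 CPM in R117fs and 7.21 to 10.6 CPM in WT, against 9.40 to 14.0 CPM in GFP. The log2 fold change was -0.07 ± 0.14 (edgeR adjusted p = 0.738), -0.12 ± 0.14 (0.623) and -0.30 ± 0.14 (0.129) for G659fs, R117fs and WT. The first of these turned to 0.10 with the effective length offset.

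In counts, 6 of the 9 genes rose and 0 fell in G659fs relative to GFP, where 25.4% of all 16787 genes were called in either direction (11.6% higher and 13.8% lower). For 6 of the 9 the libraries did not overlap, as for 37.9% of all genes. In R117fs relative to GFP 0 of 9 were called, where 15.6% of all genes were (7.04% higher and 8.57% lower), and 0 of 9 had libraries that did not overlap, against 16.5% of all genes. Of the 9, 1 had an unadjusted p under 0.05 (BAMBI), and DESeq2 also called 0. In WT relative to GFP 3 of 9 rose and 0 fell, where 21.5% of all genes were called (9.85% higher and 11.6% lower), and 4 of 9 had libraries that did not overlap, against 33.8% of all genes. The median log2 fold change of the 9 genes was 0.49 in G659fs, -0.09 in R117fs and 0.21 in WT, against 0.00, -0.01 and 0.00 over all genes tested. The 3 comparisons share the 4 GFP libraries.

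The constructs were then compared directly with each other, which tests whether the responses differ. G659fs exceeded R117fs for 6 of the 9 genes and was below it for 0, where 14.4% of all genes were called (6.35% higher and 8.02% lower). The log2 difference was 1.18 ± 0.20 for ID1 (edgeR adjusted p = 0.000973), 0.64 ± 0.08 for ID2 (4.4e-05), 0.45 ± 0.08 for ID3 (0.00135) and 0.43 ± 0.10 for ID4 (0.00718). For SMAD6 it was 0.73 ± 0.10 (0.000208) and for SMAD7 0.41 ± 0.12 (0.0248). In all 6 genes the 4 G659fs libraries lay above the 4 R117fs libraries; over all genes 18.1% had libraries that did not overlap. Without R117fs replicate 1 these differences were 0.94, 0.65, 0.39, 0.49, 0.75 and 0.32, and without R117fs replicate 4 they were 1.28, 0.58, 0.53, 0.34, 0.78 and 0.45, in the same order of genes. The SMAD7 call was lost without R117fs replicate 1 (edgeR adjusted p = 0.0768), without R117fs replicate 2 (0.0536) and without G659fs replicate 2 or 3 (0.0786 and 0.085), and with the effective length offset (0.068). With these 8 libraries alone, SMAD7 and ID4 had 0.0658 and 0.0541.

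R117fs was below WT for ID2, ID3 and ID4, 3 of the 9 genes, and above it for 0, where 8.11% of all genes were called (4.5% higher and 3.62% lower) and 15.3% had libraries that did not overlap, as these 3 did. ID2 fell by 0.46 ± 0.08 on the log2 scale in R117fs relative to WT (edgeR adjusted p = 0.00169), ID3 by 0.37 ± 0.08 (0.0109) and ID4 by 0.36 ± 0.10 (0.0329). Without R117fs replicate 1 the values were -0.46, -0.30 and -0.42, and without replicate 4 they were -0.40, -0.45 and -0.26, all still called. In a fit of these 8 libraries alone all 3 calls were lost (adjusted p = 0.0562, 0.146 and 0.145). The ID4 call was lost in 7 of the 16 fits that left out 1 library, namely each WT replicate, R117fs replicate 3, GFP replicate 2 and G659fs replicate 2, with adjusted p of 0.0505 to 0.0879 there. The ID1 value was -0.60 ± 0.21 and did not pass (0.0821). It was -0.36 (0.192) without R117fs replicate 1, the library with the lowest ID1, and passed in 2 of 23 alternative settings, the replicate block (0.0229) and the removed GC trend (0.0398).

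G659fs and WT, which both raised ID genes over GFP, differed in 1 of the 9 genes, where 5.68% of all genes were called (2.32% higher and 3.35% lower). For 3 of the 9 (ID1, ID3 and SMAD6) the libraries did not overlap, as for 26.8% of all genes. SMAD6 was 0.57 ± 0.10 higher in G659fs on the log2 scale (edgeR adjusted p = 0.00593), with no overlap between the libraries. With the effective length offset this was 0.50 with an adjusted p of 0.0654. ID1 was 0.58 ± 0.18 higher in G659fs and the libraries did not overlap, but the adjusted p was 0.07. It passed under 6 of 23 alternative settings, among them the fits without WT replicate 2 (0.0323), R117fs replicate 1 (0.0289) or R117fs replicate 4 (0.0368) and DESeq2 (0.0467). For ID2, ID3 and ID4 the differences of G659fs from WT were 0.18 (95% interval 0.03 to 0.34), 0.08 (-0.08 to 0.25) and 0.08 (-0.13 to 0.28), none past the threshold in the main test.

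**Figure D3:**
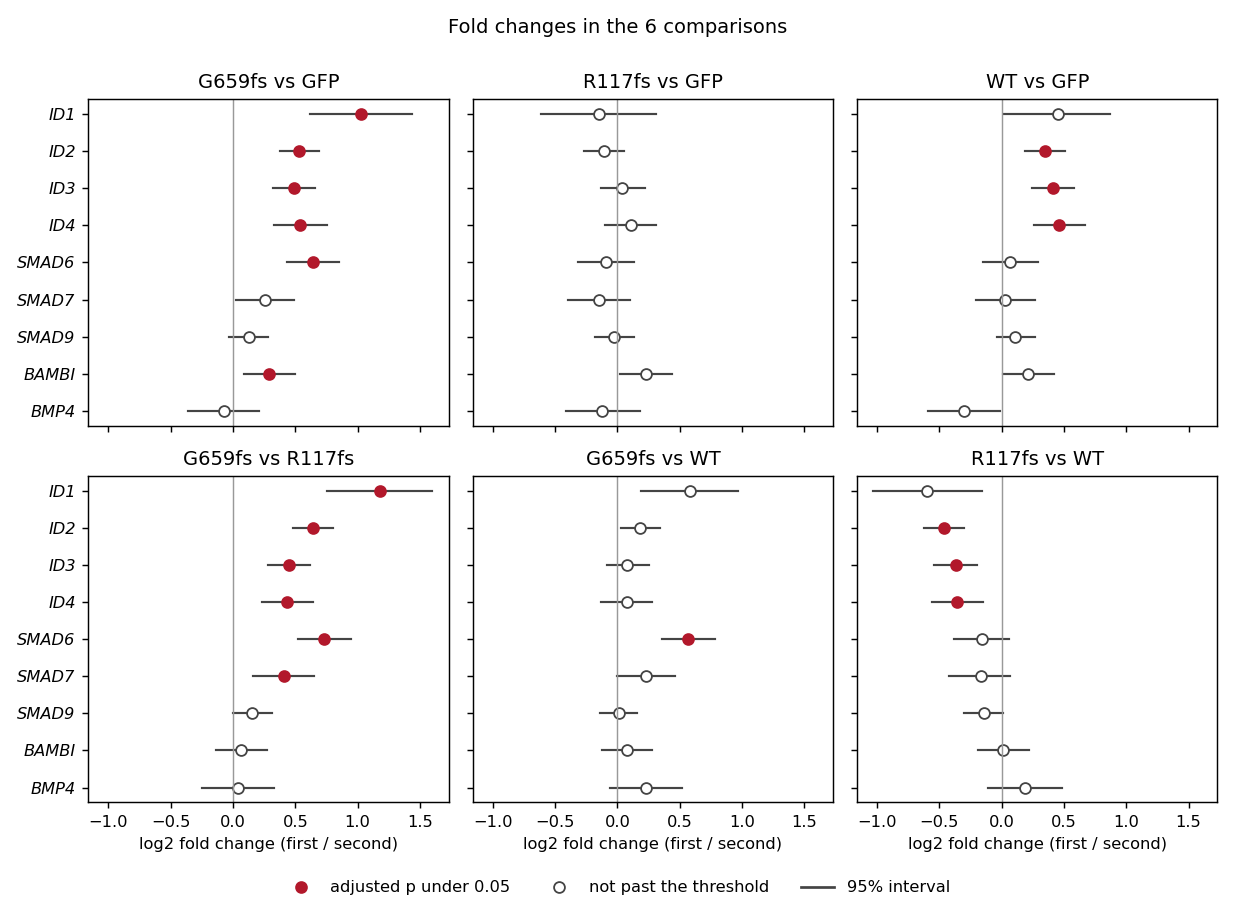
Log2 fold change (first group over second) of the 9 genes in the 6 comparisons, with 95% intervals; filled points passed an edgeR adjusted p of 0.05. The 4 ID genes are filled and right of 0 in G659fs relative to both GFP and R117fs (0.43 to 1.18), and SMAD6 is the one filled point in G659fs relative to WT (0.57).

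The counts behind each gene came mostly from few annotated transcripts. A single protein-coding transcript held 93.7% to 96.2% of ID1 counts by group mean, 86.6% to 93.0% of ID2, 92.3% to 96.0% of ID3 and 96.9% to 98.7% of BAMBI, and ID4 has a single transcript in the files. SMAD6 was divided between the coding transcript ENST00000288840, with 57.3% ± 3.4 in G659fs, 62.0% ± 5.4 in R117fs and 60.2% ± 3.6 in WT, against 55.5% ± 1.9 in GFP, and ENST00000612349, which is annotated as non-coding. The share of ENST00000612349 was 35.9% ± 3.1 in G659fs, 29.4% ± 4.1 in R117fs and 32.2% ± 3.2 in WT, against 36.8% ± 1.5 in GFP (SD, n = 4 each). Of SMAD7 counts, 36.7% ± 3.8 in G659fs, 31.8% ± 12.5 in R117fs and 39.6% ± 3.6 in WT, against 44.3% ± 9.6 in GFP, were assigned to ENST00000545051, a transcript with a retained intron. BMP4 had the least settled division: ENST00000558984 held 16.2% ± 19.96 of its counts in G659fs, 53.0% ± 7.8 in R117fs and 33.7% ± 13.3 in WT, against 52.6% ± 15.7 in GFP. The share of the main ID2 transcript in R117fs also varied, at 86.6% ± 12.9 (SD, n = 4) with a lowest library of 67.4%. These shares were not tested. ID2 and ID4 overlap annotated antisense genes and SMAD6 and SMAD9 hold genes within introns, none of these partners among the transcripts of the files, and the strand setting is not given in the sources used here. Reads of the partners cannot be told apart from the members' own.

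For the 7 members called in at least 1 comparison, the genes most like each over the 16 libraries, up to 3, were found by the smallest root mean square difference of centred log2 CPM. For ID1 they were ARC, DUSP4 and DUSP5, at 0.187, 0.192 and 0.2003, where the variation of ID1 itself was 0.537. For ID2 they were PRDX1, NFYA and TFRC (0.0713, 0.0896 and 0.0900, against 0.277 for ID2 itself), for ID3 PCDH10 and CYR61 (0.0866 and 0.0935, against 0.236) and for ID4 MARCKS, RPL22L1 and PRPS2 (0.0941 to 0.0967, against 0.268). SMAD6 was most like IL27RA and FZD9 (0.116 and 0.121, against 0.312), SMAD7 like MKI67, CENPA and RHPN2 (0.102 to 0.104, against 0.203) and BAMBI like GLRX5, CITED2 and DLC1 (0.0856 to 0.0869, against 0.156). No member was among the genes nearest to another.

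The rest of the pathway was read from 7 lists of 91 genes in all, of which 86 were tested. In G659fs relative to GFP 26 rose and 7 fell, in R117fs 3 rose and 5 fell, and in WT 11 rose and 5 fell. Over all genes 25.4% were called in G659fs (11.6% higher), 15.6% in R117fs (7.04% higher) and 21.5% in WT (9.85% higher). Several list counts here and below lie near or below these shares. The median log2 fold changes of the 86 genes were 0.11 in G659fs, -0.03 in R117fs and 0.03 in WT. Without R117fs replicate 1 the R117fs counts were 2 higher and 7 lower, and without replicate 4 they were 5 higher and 6 lower. Over the 23 alternatives between 21 and 37 rose in G659fs, between 0 and 6 in R117fs, and between 6 and 18 in WT. Among 18 other target genes of TGF-beta and BMP signalling, 10 rose and 1 fell in G659fs, 1 rose and 0 fell in R117fs, and 5 rose and 1 fell in WT, with medians of 0.40, 0.03 and 0.17. HEY1, a bHLH repressor, rose by 0.38 ± 0.07 in G659fs (edgeR adjusted p = 0.000582), 0.21 ± 0.07 in R117fs (0.0412; 0.0907 without R117fs replicate 1, and also lost without GFP replicate 2, 3 or 4 or G659fs replicate 3 or 4) and 0.42 ± 0.07 in WT (0.000309). SNAI2, a repressor known from epithelial-mesenchymal transition, rose by 0.50 ± 0.10 in G659fs (0.00115) and 0.64 ± 0.10 in WT (0.000199). CCN2, a matricellular protein gene named CTGF in GENCODE 29, rose by 0.51 ± 0.10 in G659fs (0.00165) and 0.43 ± 0.10 in WT (0.00662), and it was higher in G659fs than in R117fs by 0.59 ± 0.10 (0.00111). TAGLN, a smooth muscle actin-binding protein, was the target that fell and was named after its values were seen; it fell by 0.35 ± 0.12 in G659fs (0.0401) and 0.39 ± 0.12 in WT (0.0289). The call in G659fs was lost without each G659fs replicate in turn and without GFP replicate 1, 3 or 4, and that in WT without GFP replicate 1 or 4 or WT replicate 2 or 3.

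Ligand genes other than BMP4 moved in both directions. Of 16 tested, 5 rose and 2 fell in G659fs, 0 were called in R117fs, and 2 rose and 0 fell in WT relative to GFP. Over all genes 25.4%, 15.6% and 21.5% were called in these comparisons. The 2 that fell in G659fs, TGFB3 and GDF15, were named after their values were seen. These calls were lost under 15 (TGFB3) and 11 (GDF15) of the 23 alternatives, which include 11 and 10 of the 16 fits without 1 library. BMP2 was at 5.83 ± 0.50 CPM in G659fs, 3.98 ± 0.55 in R117fs and 5.93 ± 0.33 in WT, against 3.39 ± 0.55 in GFP (SD, n = 4 each). It rose by 0.77 ± 0.12 in G659fs (edgeR adjusted p = 0.000211) and 0.80 ± 0.12 in WT (0.000191) on the log2 scale, and was 0.52 ± 0.12 higher in G659fs than in R117fs (0.00726). INHBA, an activin subunit, rose by 1.85 ± 0.33 in G659fs (0.000682) and 1.75 ± 0.33 in WT (0.00136) from a level near the floor, at 0.892 ± 0.197 and 0.814 ± 0.041 CPM against 0.234 ± 0.099 in GFP. BMP6 rose by 0.60 ± 0.12 in G659fs (0.00122), where it was also above R117fs (0.51 ± 0.12, 0.00778) and WT (0.46 ± 0.11, 0.0269; lost without WT replicate 1, 3 or 4 or G659fs replicate 2 or 3). BMP7 rose by 0.37 ± 0.07 in G659fs (0.00128).

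Of 15 receptor and co-receptor genes 4 rose and 0 fell in G659fs relative to GFP. In R117fs 0 were called, and in WT 1 rose and 1 fell. Over all genes 25.4%, 15.6% and 21.5% were called in these comparisons. The type II receptor gene TGFBR2 rose by 0.26 ± 0.08 in both G659fs (edgeR adjusted p = 0.0196; lost without GFP replicate 2) and WT (0.024; lost without GFP replicate 1, 2 or 3 or WT replicate 2 or 4), and was 0.37 ± 0.08 higher in G659fs than in R117fs (0.00456). The BMP co-receptor gene RGMB rose by 0.32 ± 0.08 in G659fs (0.00462), and the BMP type II receptor gene BMPR2 fell by 0.28 ± 0.09 in WT (0.038; lost in 8 of the 16 fits without 1 library, among them those without each WT replicate in turn and without GFP replicate 2, 3 or 4). Of SMAD1, SMAD2, SMAD3, SMAD4 and SMAD5, 0 were called in G659fs or WT and 1 in R117fs, where SMAD3 fell by 0.21 ± 0.06 (0.0205), and by 0.24 without replicate 1 and 0.18 without replicate 4; the call was lost without GFP replicate 3 or 4.

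Of 15 extracellular antagonists and latent TGF-beta binding proteins 4 rose and 2 fell in G659fs relative to GFP. In R117fs 0 rose and 2 fell, and in WT 1 rose and 2 fell. Over all genes 25.4%, 15.6% and 21.5% were called in these comparisons, which also applies to the lists that follow. FSTL3, which binds activins, fell in all 3, by 0.56 ± 0.14 in G659fs (edgeR adjusted p = 0.00624), 0.84 ± 0.14 in R117fs (0.000862; 0.71 and 0.90 without replicates 1 and 4) and 1.10 ± 0.14 in WT (4.49e-05). The BMP antagonist gene CHRD rose by 0.38 ± 0.11 in G659fs (0.0145). Of 12 intracellular regulators, most of them antagonists, 2 rose and 1 fell in G659fs, 2 rose and 2 fell in R117fs, and 1 rose and 1 fell in WT. The gene that fell in G659fs and in WT was USP15. Its call in WT was lost in 5 of the 16 fits without 1 library. Without R117fs replicate 1, 0 of these intracellular regulators rose and 2 fell in R117fs, and of the extracellular list 2 rose and 3 fell. Without replicate 4 these counts were 2 and 2, and 0 and 3. PMEPA1, a TGF-beta-induced inhibitor of the pathway, rose by 0.34 ± 0.07 in G659fs (0.00252) and 0.23 ± 0.07 in R117fs (0.0412; 0.0619 without R117fs replicate 1, and lost in 8 of the 16 fits without 1 library, each GFP replicate among them). Among 5 bHLH genes, HES1 rose by 0.56 ± 0.08 in G659fs (0.000151) and 0.28 ± 0.09 in WT (0.0264; lost without GFP replicate 1, 3 or 4 or WT replicate 2 or 4), and TCF12, which encodes an E protein that ID proteins bind, fell by 0.22 ± 0.07 in G659fs (0.0354; lost without each GFP replicate in turn and without G659fs replicate 2, 3 or 4).

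Between constructs, 17 of the 86 were higher and 3 lower in G659fs than in R117fs. In G659fs relative to WT 9 were higher and 2 lower, and in R117fs relative to WT 0 were higher and 5 lower. Over all genes 14.4%, 5.68% and 8.11% were called in these comparisons in turn. Leaving out 1 library, G659fs relative to R117fs had 8 (without G659fs replicate 2) to 29 (without R117fs replicate 4) higher and 1 to 6 lower. G659fs relative to WT had 0 higher and 0 lower without WT replicate 1, G659fs replicate 2 or G659fs replicate 3, and 22 and 5 without R117fs replicate 4. The calls over all genes in G659fs relative to WT ranged from 100 to 3530 when 1 library was left out. R117fs relative to WT had 0 to 2 higher and 3 to 8 lower, the highest counts without R117fs replicate 1. With the 8 libraries compared alone the counts were 4 and 1, 21 and 5, and 0 and 0 for these comparisons in turn. The 5 were BMP2, INHBA, TGFBR2, CCN2 and SNAI2, each of which had risen in both G659fs and WT relative to GFP (the comparisons share the WT libraries). Their log2 values in R117fs relative to WT were -0.55, -1.19, -0.37, -0.51 and -0.40 (edgeR adjusted p = 0.00937, 0.0239, 0.00905, 0.00675 and 0.0174). All 5 calls were lost with the 8 libraries alone (0.0725, 0.11, 0.115, 0.0839 and 0.115). Without R117fs replicate 1 INHBA was -0.82 and no longer called (0.0566); it was also lost without WT replicate 2, 3 or 4, and SNAI2 without WT replicate 2. The other 4 remained called without R117fs replicate 1 and without replicate 4. The early response gene JUNB was 0.71 ± 0.19 higher in G659fs than in WT (0.0401), and CDKN1C, an inhibitor of cyclin-dependent kinases, 0.81 ± 0.17 higher (0.0142). The JUNB call was lost without WT replicate 1, 3 or 4 or G659fs replicate 2, 3 or 4, and the CDKN1C call without WT replicate 1 or G659fs replicate 2 or 3. GDF15, a stress-induced ligand, was at 9.46 ± 2.58 CPM in G659fs, against 22.4 ± 7.4 CPM in WT and 23.2 ± 9.1 CPM in R117fs (SD, n = 4 each). Its log2 difference was -1.25 ± 0.31 (0.0323; lost without WT replicate 1, 3 or 4 or G659fs replicate 2, 3 or 4) from WT and -1.30 ± 0.31 (0.0129) from R117fs. The differences of G659fs from R117fs named here for BMP2, BMP6, TGFBR2, CCN2 and GDF15 remained called without R117fs replicate 1 and without replicate 4, with adjusted p of at most 0.0344 (GDF15 without replicate 4); that of TGFBR2 was lost with the 8 libraries alone (0.0601). Among the list gene calls given with values above, some were also lost in fits of all 16 libraries. With the effective length offset these were RGMB and TCF12 in G659fs, TGFBR2 and BMPR2 in WT, TAGLN in both, SMAD3, PMEPA1 and HEY1 in R117fs, each relative to GFP, and INHBA in R117fs relative to WT. With no low-count filter they were TAGLN and TCF12 in G659fs, BMPR2 in WT, and SMAD3, PMEPA1 and HEY1 in R117fs, each relative to GFP, and JUNB and GDF15 in G659fs relative to WT. The BMPR2 call was lost with the replicate block and the PMEPA1 call in R117fs with the GC trend taken out. With the 8 libraries alone the R117fs calls of SMAD3, PMEPA1 and HEY1 relative to GFP were lost (0.169, 0.172 and 0.216).

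**Figure D4:**
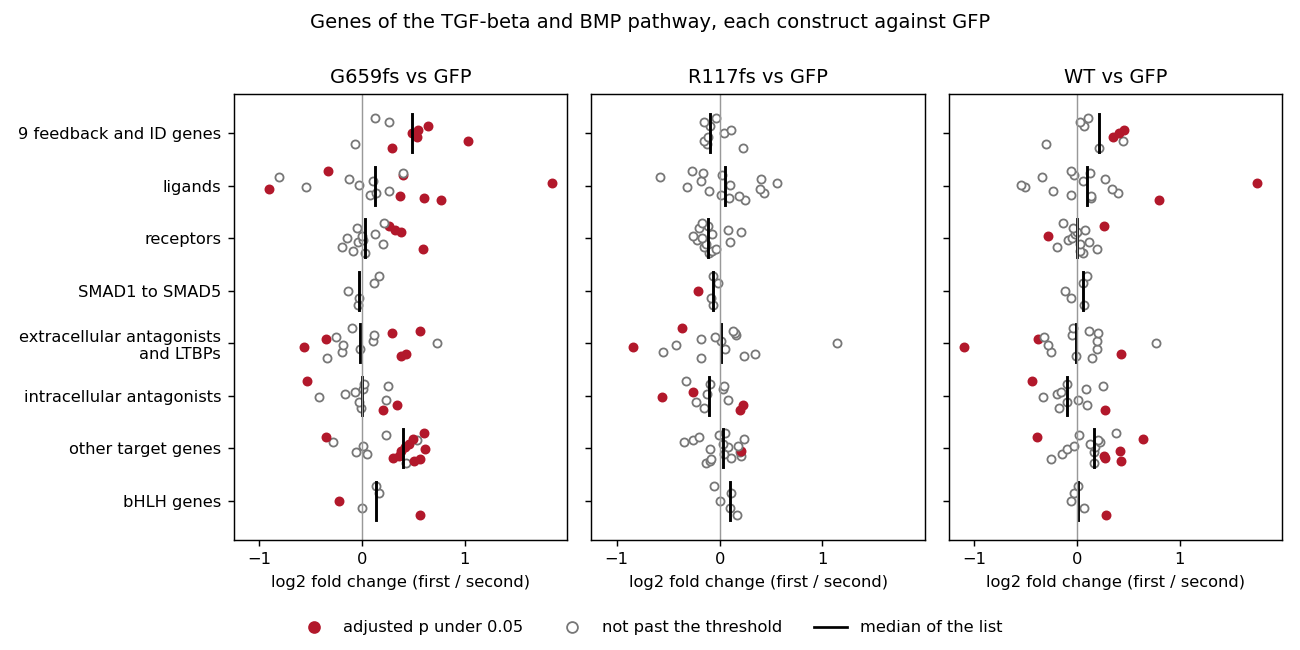
Log2 fold change relative to GFP of the 9 feedback and ID genes and of 86 other tested pathway genes, by list, in G659fs, R117fs and WT; bars are list medians and filled points passed an edgeR adjusted p of 0.05. The other target genes have medians of 0.40, 0.03 and 0.17 in the 3 panels. The medians are 0.03, -0.11 and 0 for the receptor list and -0.03, -0.06 and 0.06 for SMAD1 to SMAD5. In G659fs 4 of the 15 receptor genes are filled.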

How the data were processed

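RNA from 16 HEK293 libraries was sequenced, and the labels gave each its group and replicate number. The tool named in the submitters' processing notes is kallisto 0.45.1 and the build GRCh38; the sources used here do not give the annotation release or options. Each deposited file lists, per transcript, estimated counts, which are not whole, and TPM, scaled by effective length per the file headers. Of 178136 transcripts 162453 (91.2%) matched GENCODE 29 by identifier without version; the rest, 1.904% to 2.216% of counts, were left out.

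Estimated counts were summed per gene and rounded. After filterByExpr, 16787 genes remained. The test was the quasi-likelihood F-test of edgeR 4.0.16 (R 4.3.3) with TMM and robust dispersions, on a joint model of the 16 libraries in which each group has its own mean. P-values were adjusted by Benjamini-Hochberg over the 16787 genes, separately by comparison, and under 0.05 a gene is named called. Adjusted p without another tool's name is edgeR's, on the log2 scale ± SE. A prior count of 2 was used for log2 CPM. The analysis was tested on simulated data. The closest pair of libraries in a group differed by a chi-square of 3.53 per degree of freedom, so none was a duplicate. Same-numbered libraries deviated together by -0.062 to 0.16 (correlation over genes), so numbers were not taken to pair them.

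The 9 genes are named in every comparison; of each list at most the 4 with the smallest adjusted p get values, and the fold changes of lists were given no set test. Members and lists were chosen with earlier results of these data known. A few genes and 1 marker list are not reported here. Alternatives were RLE size factors, DESeq2 1.42.0, no filter, a replicate block, only the 8 libraries compared, an effective length offset, removal of a GC trend, and leaving out each library. The DESeq2 test used the same counts.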

Additional observations from a re-analysis of the deposited data

Results flagged for a closer look

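The level of ID4 in G659fs replicate 1, 125.1 CPM, stood apart from the other 3 G659fs libraries (106.1 to 108.6 CPM). Its gap to the nearest, as a share of the range of the group, was above the 0.829 that marks an unusual value among 4. Of the 36 sets of 4 values looked at (9 genes in 4 groups), this was 1, and chance flags about 1 in 20. Without this library ID4 in G659fs exceeded GFP by 0.48 on the log2 scale (edgeR adjusted p = 0.00371).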

How the results depend on the processing

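Of 54 member values (9 genes in 6 comparisons) 19 were called. Of these, 12 passed under all 23 alternatives and 7 lost the call under at least 1; no called value changed sign under these, and 7 uncalled values passed under at least 1 (ID1 in 3 comparisons; ID2 in G659fs relative to WT; SMAD7 and SMAD9 in G659fs relative to GFP; BAMBI in WT relative to GFP). The 7 that lost it were BAMBI in G659fs relative to GFP, ID2, ID3 and ID4 in R117fs relative to WT, SMAD6 in G659fs relative to WT, and ID4 and SMAD7 in G659fs relative to R117fs. The count of members called in R117fs relative to WT was 0 with the 8 libraries compared alone (4 at an unadjusted p under 0.05; DESeq2 called 3). In G659fs relative to WT, where 1 was called, it was 2 with DESeq2, 2 with the replicate block, 3 with the 8 libraries alone, 2 after GC trend removal and 0 with the effective length offset (4 unadjusted). Leaving out 1 library gave 5 to 7 members in G659fs relative to GFP, 0 to 0 in R117fs relative to GFP, 3 to 4 in WT relative to GFP, 5 to 6 in G659fs relative to R117fs, 1 to 3 in G659fs relative to WT and 2 to 3 in R117fs relative to WT. G659fs relative to WT had 2 (ID1 and SMAD6) without R117fs replicate 1 and 3 (ID1, ID2 and SMAD6) without R117fs replicate 4. The causes were not tested.

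Replicate numbers were not taken to pair the libraries (own number closest in 17 of 48). Even so, ID1 and SMAD7 were lowest in replicate 1 in each of the 4 groups, and whether same-numbered libraries share a batch was not tested. With the replicate block 7 members were called in G659fs, 0 in R117fs and 4 in WT relative to GFP. It called 6 in G659fs relative to R117fs and 4 in R117fs relative to WT. ID1 passed with the block in WT relative to GFP (edgeR adjusted p = 0.0406), R117fs relative to WT (0.0229) and G659fs relative to WT (0.0155).

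Of the uncalled values, 11 turned sign under at least 1 alternative, in 21 cases of 1 value under 1 alternative. In G659fs relative to GFP SMAD9 was -0.02 and BMP4 0.10 with the effective length offset, and BMP4 0.03 without GFP replicate 2 (lowest -0.16, leaving out GFP replicate 3). In R117fs relative to GFP ID3 was -0.01 and SMAD9 0.01 after GC trend removal; ID3 was -0.04 and SMAD9 0.04 without R117fs replicate 4, and ID1 was 0.09 without R117fs replicate 1. Leaving out 1 library, ID1 went down to -0.27 and ID3 up to 0.11. In WT relative to GFP SMAD6 was -0.01 and SMAD7 -0.04 without WT replicate 2 (SMAD6 at most 0.13), and SMAD7 was -0.07 and -0.01 without GFP replicates 1 and 3 and -0.01 without WT replicate 4. In G659fs relative to R117fs BAMBI was 0.00 and BMP4 -0.06 without R117fs replicate 1, and leaving out other libraries at most 0.11 and 0.12. In G659fs relative to WT SMAD9 was -0.08 with the effective length offset and -0.01 without G659fs replicate 3. In R117fs relative to WT BAMBI was -0.03 with that offset, -0.06 without WT replicate 1, and -0.01 and -0.02 without R117fs replicates 3 and 4.

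Over all genes the count of calls moved too. It was 4258 in G659fs relative to GFP (6993 with the 8 libraries alone, 6440 after GC trend removal, 6723 without R117fs replicate 4), 2620 in R117fs (588 and 4351, 1740 with the length offset, 1718 and 1455 without GFP replicates 2 and 4) and 3603 in WT (5919 and 5969; 2222 without GFP replicate 4 and 6133 without R117fs replicate 4). It was 2412 in G659fs relative to R117fs (796 and 4686; 1320 to 4012 leaving out 1 library), 953 in G659fs relative to WT (4660 and 2820; 1663 with DESeq2, 601 unfiltered, 439 with the length offset; 100 to 3530) and 1362 in R117fs relative to WT (154 and 2729; 853 with the length offset; 626 to 2607).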
